A study of Mus musculus with 6 samples.

Results

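Crystallins are the soluble proteins that fill the fiber cells of the ocular lens, and 10 crystallin genes were followed here in mouse retina at postnatal day 21 (P21): the alpha crystallins Cryaa and Cryab, the beta crystallins Cryba1, Cryba2, Cryba4, Crybb1, Crybb2 and Crybb3, and the gamma crystallins Crygb and Crygs. They are 10 of the 24062 genes in the count table, taken by symbol. The list was drawn up with their difference between the genotypes already known, so that difference is described below and not tested. The question behind the experiment was how loss of Hells, which encodes a chromatin remodeler, alters the transcriptome of retinae that lack the tumor suppressors Rb1 and p107. Retinal RNA was sequenced from 3 Chx10-Cre Rb1/p107/Hells retinae (TKO) and 3 Chx10-Cre Rb1/p107 retinae (DKO) of strain C57BL/6 (C57BL/6N in the study's methods), with 1 library per retina. Both genotypes carried the Chx10-Cre transgene, floxed Rb1 alleles and a germline deletion of p107, and the TKO also carried floxed Hells alleles. Chx10-Cre is active in a mosaic of retinal progenitors, so cells that did not recombine remain in both groups, and no Cre-negative retina entered the comparison.

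The libraries held between 10343907 and 14203098 counts, and replicates of a genotype differed beyond counting error, with a chi-square per degree of freedom of 8.61 to 25.3. Hells itself had between 60.8 and 83.4 normalized counts in the TKO retinae and between 395 and 678 in the DKO retinae, so each library followed its label. A normalized count is the count divided by the library size after TMM scaling, relative to the mean of the 6 libraries, and CPM is the same count on a common scale of 1e+06 per library. Gnat1, the transducin of rods, was abundant in every library, from 26618 to 158002 normalized counts, as the label retina implies. TKO replicate 2 stood apart from the other 5 libraries in genes that mark skeletal muscle and lens. It held 4224 counts over 12 fast skeletal muscle genes, against 124 to 156 in the other 5 libraries, and 47 counts of Lim2, a membrane protein of lens fibers, against 0 to 2. The differences below are therefore given with this library and without it. In bulk retina, a lower level cannot be assigned to fewer cells of a type or to less RNA per cell.

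The crystallins fall into separate families. Alpha crystallins are small heat shock proteins that bind unfolding proteins and keep them soluble; Cryaa is largely restricted to the lens, whereas Cryab is made in many tissues, including muscle, heart and neural tissue, and is induced by stress. Beta and gamma crystallins share a fold built of Greek key motifs and give the lens its refractive power, beta crystallins as oligomers and gamma crystallins as monomers. Crystallin transcripts other than Cryab occur in retina at low level, and lens fiber cells, which lie against the vitreous in front of the retina, carry them in great abundance. In lens cells, transcription factors of the large Maf family, Pax6 and Sox proteins act on crystallin promoters.

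The 250 bases before the RefSeq start are shown for 5 of the genes, because the crystallins were high in the same retinae (below) and the windows show which letters their starts share. They come from the RefSeq annotation of GRCm38.p6 and run 5′ to 3′ on the strand of the gene. Capitals mark the letters TGCTGA, the core of the Maf recognition element, and TATAAA, the TATA box, each searched on both strands. Cryba1 (chr11:77725294-77725543, minus strand) and Crybb1 (chr5:112255570-112255819, plus strand) hold both motifs. Cryba4 (chr5:112252519-112252768, minus strand) holds 3 copies of the Maf core. Crybb2 (chr5:113070118-113070367, minus strand) and Crygb (chr1:65082291-65082540, minus strand) hold neither run of letters. Variants of the TATA box were not searched, such as the letters tatatata near the end of the Crygb window.
Cryba1: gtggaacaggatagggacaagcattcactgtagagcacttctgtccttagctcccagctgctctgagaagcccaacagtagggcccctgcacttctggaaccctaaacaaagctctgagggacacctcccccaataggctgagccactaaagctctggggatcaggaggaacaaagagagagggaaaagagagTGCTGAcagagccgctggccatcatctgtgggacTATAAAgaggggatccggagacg
Crybb1: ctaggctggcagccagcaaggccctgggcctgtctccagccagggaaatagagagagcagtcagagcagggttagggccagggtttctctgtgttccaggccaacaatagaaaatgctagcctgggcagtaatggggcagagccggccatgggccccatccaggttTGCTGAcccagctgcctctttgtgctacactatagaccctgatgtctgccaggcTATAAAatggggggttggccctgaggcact
Cryba4: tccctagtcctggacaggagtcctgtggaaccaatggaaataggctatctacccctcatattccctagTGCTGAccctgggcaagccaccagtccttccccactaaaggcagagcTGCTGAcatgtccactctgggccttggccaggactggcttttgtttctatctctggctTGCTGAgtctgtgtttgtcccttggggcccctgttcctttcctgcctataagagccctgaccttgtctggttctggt
Crybb2: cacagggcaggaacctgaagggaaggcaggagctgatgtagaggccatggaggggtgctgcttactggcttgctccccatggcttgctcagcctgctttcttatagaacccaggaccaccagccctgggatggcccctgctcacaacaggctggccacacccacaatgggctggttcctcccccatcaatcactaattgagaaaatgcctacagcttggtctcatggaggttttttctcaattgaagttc
Crygb: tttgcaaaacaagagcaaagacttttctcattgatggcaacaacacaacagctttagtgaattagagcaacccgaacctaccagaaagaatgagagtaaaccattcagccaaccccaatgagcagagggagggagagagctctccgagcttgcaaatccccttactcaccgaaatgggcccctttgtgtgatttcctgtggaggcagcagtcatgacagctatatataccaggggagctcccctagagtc

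A promoter window was found for 9 of the 10 genes, all but Cryab. The RefSeq start matched a GENCODE transcript start for Cryba2 and Crybb2 alone, and annotated exons covered 124 of the 250 bases for Cryaa and 167 for Crygs. The Maf core was present in 7 of the 9 windows, those of Cryaa, Cryba1, Cryba2, Cryba4, Crybb1, Crybb3 and Crygs, and in 16.08% of all 32851 promoter windows of the same length. The TATA box letters were present in 3 of the 9, those of Cryba1, Crybb1 and Crygs, against 12.37% of all windows. In Cryba1 the TATA letters began at position -23 and in Crybb1 at position -30, counted back from the start. The core of the heat shock element, GAANNTTC, was in 0 of the 9 windows and in 6.69% of all. The windows of the crystallins held a median of 3 CpG sites and all windows a median of 6. A match is a run of letters and not evidence that a factor binds there.

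Cryaa took more counts than any beta or gamma crystallin of the list in each TKO library. Cryaa (chromosome 17, 31677807 to 31681733, plus strand, GRCm38) reached 299, 1464 and 218 normalized counts in the TKO retinae (replicates 1, 2 and 3). Its DKO values were 11.3, 5.25 and 14.7 normalized counts, from 12, 6 and 17 counted read pairs. Every TKO retina lay above every DKO retina, and replicate 2 lay far above the other TKO retinae, which reached 20.4% and 14.9% of its level. The group means were 661 ± 697 normalized counts in TKO against 10.4 ± 4.77 in DKO (SD, n = 3 each), so the TKO standard deviation exceeded the TKO mean. The fitted log2 fold change of TKO over DKO was 5.98 (standard error 0.902), and it was 4.62 without TKO replicate 2. TKO replicates 1 and 3 alone averaged 24.9 times the DKO mean.

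Cryab, the widely expressed alpha crystallin, behaved differently. Cryab (chromosome 9, 50751325 to 50756636, plus strand) had 557, 1316 and 700 counts in the TKO retinae and 848, 909 and 1100 in the DKO retinae, in the order of the replicates. The groups overlapped, since 1 TKO retina was the highest of the 6 and the other TKO retinae were not separated from the DKO retinae. Its means were 961 ± 383 and 848 ± 88.2 normalized counts (SD, n = 3 each). The log2 fold change was 0.18 (standard error 0.244) with all 6 libraries and turned to -0.18 without TKO replicate 2. The start of Cryab overlaps Hspb2, a small heat shock gene on the opposite strand. Hspb2 had 1, 11 and 4 counts in TKO against 19, 20 and 10 in DKO, far fewer than Cryab in every library.

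**Figure D1:**
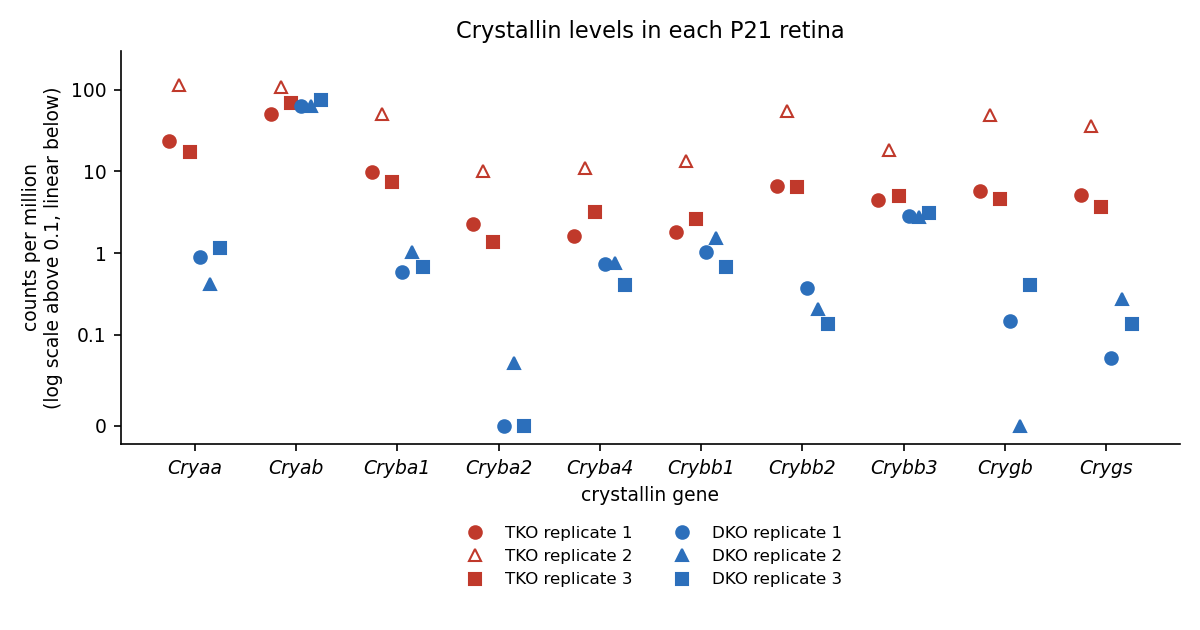
Level in CPM (TMM-scaled, log axis above 0.1 and linear below) of each of the 10 crystallins in each of the 6 P21 retinae, with red symbols for TKO, blue symbols for DKO and an open triangle for TKO replicate 2. For 9 genes all red symbols lie above all blue symbols and the open triangle is highest; for Cryab the red and blue symbols overlap.

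The acidic beta crystallins were low in DKO retinae and higher in each TKO retina. Cryba1 (chromosome 11, 77718615 to 77725283, minus strand), from which a single transcript gives a pair of acidic beta crystallins by alternative translation starts, had 108, 601 and 76 counts in TKO against 8, 15 and 10 in DKO. Its log2 fold change was 4.84 (standard error 0.842), and 3.46 without TKO replicate 2. Cryba1 lies within the annotated span of Nufip2, which is read from the opposite strand. Nufip2 had 1005 to 1370 normalized counts in TKO against 777 to 981 in DKO, a far smaller difference than that of Cryba1.

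Cryba2 (chromosome 1, 74889934 to 74893143, minus strand), another acidic lens structural protein, had 25, 121 and 14 counts in TKO against 0, 1 and 0 in DKO. With 160 counts against 1 over the groups, the pooled ratio was 204 with an exact 95% counting interval from 36.1 to 8109, which covers counting error only. Without TKO replicate 2 it was 77.8 (13.2 to 3149), from 39 counts against 1. The gene then passed on p and fold (log2 fold change 5.78, edgeR adjusted p = 0.0362). It was not called, because its mean fell below the minimum of 10 normalized counts. The gene was thus barely detected in DKO retinae, so its fold is loosely bounded. TKO replicates 1 and 3 each lay above all DKO retinae. Cryba4 (chromosome 5, 112246493 to 112252518, minus strand) had 18, 133 and 33 counts in TKO against 10, 11 and 6 in DKO. Its log2 fold change was 3.05 (standard error 0.720), and 1.90 without TKO replicate 2.

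The basic beta crystallins gave both the largest and the smallest differences of the crystallins on chromosome 5. Crybb2 (113058258 to 113070117, minus strand), a main beta crystallin of the adult lens, had 74, 656 and 66 counts in TKO against 5, 3 and 2 in DKO. TKO replicates 1 and 3 stood at 12.3% and 11.7% of replicate 2, yet at 27.5 times the DKO mean. The log2 fold change was 6.53 (standard error 1.16), and 4.74 without TKO replicate 2. Its neighbour Crybb3 (113075839 to 113081584, minus strand), 5722 bases away, had 50, 221 and 52 counts in TKO against 38, 40 and 46 in DKO. Here the DKO level was clearly above 0 and the 2 lower TKO retinae lay on average at 1.64 times the DKO mean. The log2 fold change of Crybb3 was 1.68 (standard error 0.524), and 0.72 without TKO replicate 2.

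Crybb1 (112255815 to 112269585, plus strand) lies 3297 bases from Cryba4 on the same chromosome and is read in the opposite direction. It had 20, 160 and 27 counts in TKO against 14, 22 and 10 in DKO, so that as raw counts TKO replicate 1 lay below DKO replicate 2. After scaling for library size, TKO replicate 1 had 1.81 CPM against 1.52 in DKO replicate 2, and the exact counting intervals of these values, 1.11 to 2.80 and 0.954 to 2.31, overlapped. The gap between these retinae, the closest of the genotypes for Crybb1, is therefore within counting error. The same holds for Cryba4 in TKO replicate 1 against DKO replicate 2 (0.967 to 2.58 and 0.380 to 1.36 CPM). It also holds for Crybb3 in TKO replicate 1 against DKO replicate 3 (3.36 to 5.98 and 2.30 to 4.19 CPM). For Crybb1 the log2 fold change was 2.45 (standard error 0.759), and 1.03 without TKO replicate 2.

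The gamma crystallins were nearly absent from DKO retinae. Crygb (chromosome 1, 65080219 to 65082288, minus strand), a monomeric gamma crystallin of the lens fiber nucleus, had 63, 591 and 48 counts in TKO against 2, 0 and 6 in DKO. Its log2 fold change was 6.66 (standard error 1.30), and 4.72 without TKO replicate 2. Crygs (chromosome 16, 22805203 to 22811577, minus strand), the gamma crystallin that is made mostly in the adult lens cortex, had 57, 437 and 38 counts in TKO against 1, 4 and 2 in DKO. Its log2 fold change was 6.44 (standard error 1.18), and 4.67 without TKO replicate 2. Both genes were highest in TKO replicate 2 and did not overlap between the groups. Of the 100-base windows in the transcript of Crygb, 22.8% are identical to a stretch of Crygc, so reads could be shared between these 2 genes; none of the windows of the other 9 crystallins is shared with another gene.

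The remaining gamma crystallins, which the list did not include, were likewise highest in TKO replicate 2. Crygd had 31, 351 and 28 counts in TKO against 0, 0 and 1 in DKO. Crygc had 27, 380 and 35 counts in TKO against 0, 2 and 0 in DKO, and Cryge had 18, 291 and 33 in TKO and 1 in each DKO retina. Cryga had 10, 61 and 10 counts in TKO against 1, 2 and 3 in DKO. These 4 genes passed the threshold of edgeR's quasi-likelihood test as higher in TKO, with log2 fold changes from 3.97 for Cryga (adjusted p = 0.0216) to 8.45 for Crygd (adjusted p = 0.0131). Crygf had 3, 93 and 6 counts in TKO against 0 in every DKO retina, at least 43.4-fold higher against a floor of 3 counts over the DKO group (at least 5.98-fold without TKO replicate 2), and did not pass (edgeR adjusted p = 0.0620). Without TKO replicate 2, Crygc, Crygd and Cryge still passed and Cryga did not (edgeR adjusted p = 0.0520). With all retinae, DESeq2 called Cryga, Cryge and Crygf higher (DESeq2 adjusted p = 0.0108 for Crygf). It gave no adjusted p for Crygc and Crygd. Reads could be shared here too: 8.73% to 22.61% of the 100-base windows of Crygc, Crygd, Cryge and Crygf are identical to a stretch of another gamma crystallin, and 37.97% of those of Cryga to the overlapping gene model Gm28845, so their separate values are uncertain.

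The distant relatives of the beta and gamma crystallins were not called. Crybg3, a large protein with crystallin motifs that is not a lens structural protein, had 432 ± 45.8 normalized counts in TKO and the most counts of the group. Its log2 fold change was 0.48, short of the minimum of 1 (edgeR adjusted p = 0.0230). Crybg1 and Crybg2 did not pass the test. Crygn, with 5, 10 and 2 counts in TKO against 2, 3 and 3 in DKO, did not pass either and was highest in TKO replicate 2. Of the 9 crystallins outside the list, 4 passed as higher and 0 as lower, where 1.97% of all 16904 genes tested were called higher, with a median log2 fold change of 3.97, and 1.71 without TKO replicate 2.

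By the study's definition of a differentially expressed gene (adjusted p of at most 0.05, log2 fold change of at least 1 in size and mean of at least 10 normalized counts), 7 of the 10 crystallins were called higher in TKO by edgeR. Over all genes tested, 1.97% were called higher and 4.38% lower; the crystallins were chosen on this contrast, so nothing is read from their count. All 10 passed the filter on low counts. The 7 were Cryaa, Cryba1, Cryba2, Cryba4, Crybb2, Crygb and Crygs. Without TKO replicate 2, 5 were called (Cryaa, Cryba1, Crybb2, Crygb and Crygs) and 0.979% of all genes were called higher. Leaving out DKO replicate 1 or DKO replicate 2 instead left 1 crystallin called, Cryaa. Over all genes, 140 of 16666 and 121 of 16678 were then called higher, in place of 333 of 16904. Leaving out TKO replicate 1 or TKO replicate 3 gave 9 crystallins, with 209 of 16758 and 476 of 16773 genes called higher. DESeq2 called 8, where 2.12% of all genes were called higher, and a fit with the replicate number as a block called 4, where 0.0887% were. The number called thus depended on single libraries of both genotypes, for all genes as well as for the crystallins.

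The order of the retinae is likewise a description of genes chosen on this contrast. In 9 of the 10 crystallins, all but Cryab, every TKO retina lay above every DKO retina in normalized counts, and 18.0% of all genes tested showed this. With TKO replicate 2 set aside, replicates 1 and 3 lay above every DKO retina for the same 9 genes, against 21.3% of all genes. All 10 crystallins were highest in TKO replicate 2, which was the highest retina for 15.7% of all genes. The ratio of TKO replicate 2 to the mean of TKO replicates 1 and 3 ran from 1.85 for Cryab and 3.84 for Crybb3 up to 8.33 for Crybb2 and 9.49 for Crygb. The median log2 fold change of the 10 genes was 5.41, against -0.01 over all genes, and 4.04 without TKO replicate 2.

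**Figure D2:**
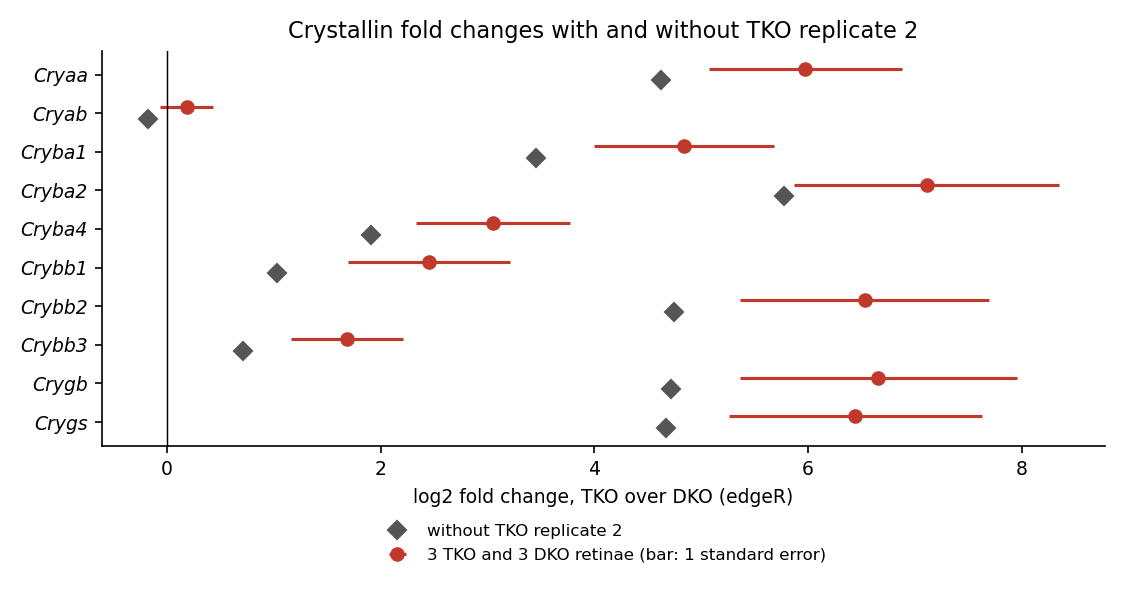
Log2 fold change of TKO over DKO from edgeR for each crystallin, as a red point with a bar of 1 standard error for all 6 retinae and a grey diamond for the fit without TKO replicate 2. Each diamond lies to the left of its point, Cryab lies at 0.18 and -0.18, and the other 9 genes stay above 0.

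As a family, the 10 crystallins summed to 112, 468 and 120 CPM in TKO replicates 1, 2 and 3. The DKO sums were 69.8, 70.0 and 81.8 CPM. Most of the DKO sum was Cryab, and without it the other 9 genes summed to 61.3, 359 and 51.6 in TKO and to 6.70, 7.06 and 6.76 in DKO. The DKO retinae were therefore tightly alike, at 6.84 ± 0.195 CPM (SD, n = 3), while the TKO retinae spread over a wide range, at 157 ± 175. The ratio of the means for these 9 genes was 23.0 with all retinae and 8.26 without TKO replicate 2. It was 12.4 for the 6 beta crystallins together, and 4.65 without that library. For Crygb and Crygs together it was 100, and 27.6 without that library.

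The make-up of the crystallin counts is given next, as a description. Of the counts of the 9 genes without Cryab, Cryaa took 38.6%, 32.3% and 33.5% in TKO replicates 1, 2 and 3 and 13.3%, 5.88% and 17.2% in DKO. Crybb3 went the other way, with 7.40%, 5.13% and 9.77% in TKO and 42.2%, 39.2% and 46.5% in DKO. TKO replicates 1 and 3, whose amounts were far lower than that of replicate 2, resembled replicate 2 in these shares rather than the DKO retinae.

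**Figure D3:**
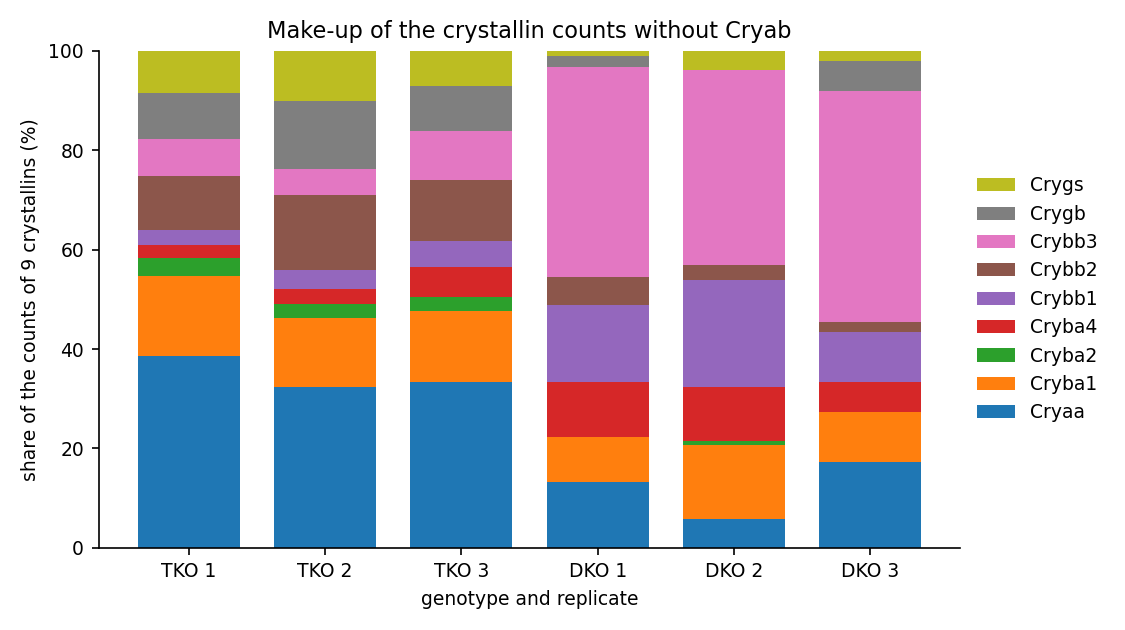
Share of the summed counts of 9 crystallins (without Cryab) taken by each gene, as stacked bars to 100% for each TKO and DKO retina. Cryaa takes 32.3% to 38.6% of the TKO bars and 5.88% to 17.2% of the DKO bars, and Crybb3 takes 39.2% to 46.5% of the DKO bars.

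Levels can be compared between genes only after division by transcript length, here as CPM per kilobase of exon. In DKO retinae Cryab was highest, at 45.3 ± 4.72, and the other 9 genes lay at 1.25 or below. Next in order came Crybb3 at 1.25 ± 0.0856, Crybb1 at 1.10 ± 0.428 and Cryba4 at 0.762 ± 0.237. Cryba1, Cryaa, Crygb, Crygs and Crybb2 followed, from 0.484 down to 0.119, and the values of the retinae overlapped between every pair of neighbours from Crybb3 to Crybb2. Cryba2 was lowest at 0.0193 ± 0.0335 (SD, n = 3 for all) and did not overlap Crybb2. In TKO retinae Cryab was again first, at 51.4 ± 20.5, followed by Crygb at 31.3 ± 40.1, Cryaa at 25.2 ± 26.5 and Crygs at 17.2 ± 21.1. All neighbours in the TKO order overlapped, and the order of Crygb and Cryaa came from TKO replicate 2. In TKO replicates 1 and 3, Cryaa, at 11.4 and 8.32, lay above Crygb, at 9.01 and 7.34.

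Genes of the lens that are not crystallins were measured from a list of 16, which the crystallin list did not use. Of these, 13 could be tested and 0 were called by edgeR in either direction, nor by DESeq2, while 4 had an unadjusted p under 0.05. Over all genes tested, edgeR called 1.97% higher and 4.38% lower. A count of 0 called in this or another short list below is therefore not read as a result. Lim2 had 0, 47 and 2 counts in TKO against 0 in every DKO retina, and was thus nearly confined to TKO replicate 2. Lgsn, a lens protein related to glutamine synthetase, had 3, 64 and 10 counts in TKO against 15, 14 and 15 in DKO. Mip, the lens water channel, had 17, 59 and 19 counts in TKO against 28, 27 and 30 in DKO. For Lgsn and Mip, TKO replicates 1 and 3 were thus within or below the range of the DKO retinae, unlike the crystallins in the same libraries.

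Among the other lens genes, the filament gene Bfsp1 was again highest in TKO replicate 2, and the abundant Lenep and Hsf4 were not. Bfsp1, which encodes a protein of the beaded filament of the lens fiber, had 18, 53 and 23 counts in TKO against 34, 29 and 36 in DKO. Lenep had 94, 93 and 75 counts in TKO against 69, 69 and 62 in DKO. Its log2 fold change of 0.73 (edgeR adjusted p = 0.0277) was below the minimum for a call. The annotated span of Lenep overlaps Flad1 on the same strand, so the value of Lenep is uncertain. Hsf4, the heat shock factor of the lens, had 72.0 ± 6.65 and 74.5 ± 17.3 normalized counts. Foxe3, a factor of the lens epithelium, had 0 counts in all 6 libraries, and Dnase2b, the nuclease of maturing lens fibers, had 5 counts in TKO replicate 2 and 0 elsewhere. The 16 genes summed to 19.9, 43.5 and 22.9 CPM in TKO and to 20.3, 23.0 and 19.3 in DKO. Of the 13 tested, 9 were highest in TKO replicate 2, which was the highest retina for 15.7% of all genes. The median log2 fold change of the list was 0.73, which is the value of Lenep, and -0.24 without that library. The part of lens tissue in the crystallin counts of any TKO retina was not tested.

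Muscle genes were read in the same way. The 12 fast skeletal muscle genes, a list made after the data were seen, were all highest in TKO replicate 2, which held 351 CPM of them against 9.22 to 13.6 in the other libraries. The size of this difference varied between the myosin genes of the list. Myh4 had 0, 463 and 0 counts in TKO against 3, 6 and 0 in DKO, and Myh13 had 2, 7 and 1 against 2, 4 and 2. Where in the eye or body the muscle RNA came from was not tested. Their median log2 fold change was 4.02, and 0.35 over the 9 that could be tested without TKO replicate 2. TKO replicates 1 and 3 had 13.2 and 13.6 CPM of muscle genes, above the 9.22, 10.8 and 10.4 of DKO replicates 1, 2 and 3. For 4 of the 12 genes every TKO retina lay above every DKO retina, against 18.0% of all genes. The sums of the 9 crystallins without Cryab were 61.3 and 51.6 CPM in TKO replicates 1 and 3 and 6.70 to 7.06 in DKO. Cryab is also made in muscle, and the part that muscle played in its 1316 counts in TKO replicate 2 was not tested.

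Pigment epithelium genes varied in both groups. The 13 genes of the retinal pigment epithelium (RPE) and pigment cells summed to 178, 289 and 130 CPM in TKO and to 54.4, 137 and 151 in DKO, and none was at 0 in all libraries. Rpe65, the retinoid isomerase of the RPE, had 134, 245 and 40 counts in TKO against 2, 21 and 41 in DKO. It was the single gene of the 13 called higher (log2 fold change 3.03, edgeR adjusted p = 0.0324), where 1.97% of all genes were. It was not called without TKO replicate 2 (edgeR adjusted p = 0.119). Ttr, the thyroxine carrier of the RPE, had 607, 1346 and 229 counts in TKO against 57, 469 and 636 in DKO. Dct, a melanin synthesis enzyme, had 387 ± 64.8 and 290 ± 137 normalized counts, and Rrh, an RPE opsin, had 311 ± 62.8 and 280 ± 23.5. The sums of the 9 crystallins without Cryab were 61.3, 359 and 51.6 CPM in TKO and 6.70, 7.06 and 6.76 in DKO. In TKO both sums were highest in replicate 2 and lowest in replicate 3. In DKO the RPE sums ranged from 54.4 to 151 CPM and the crystallin sums from 6.70 to 7.06 CPM. The part of RPE tissue in the crystallin counts was not tested.

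**Figure D4:**
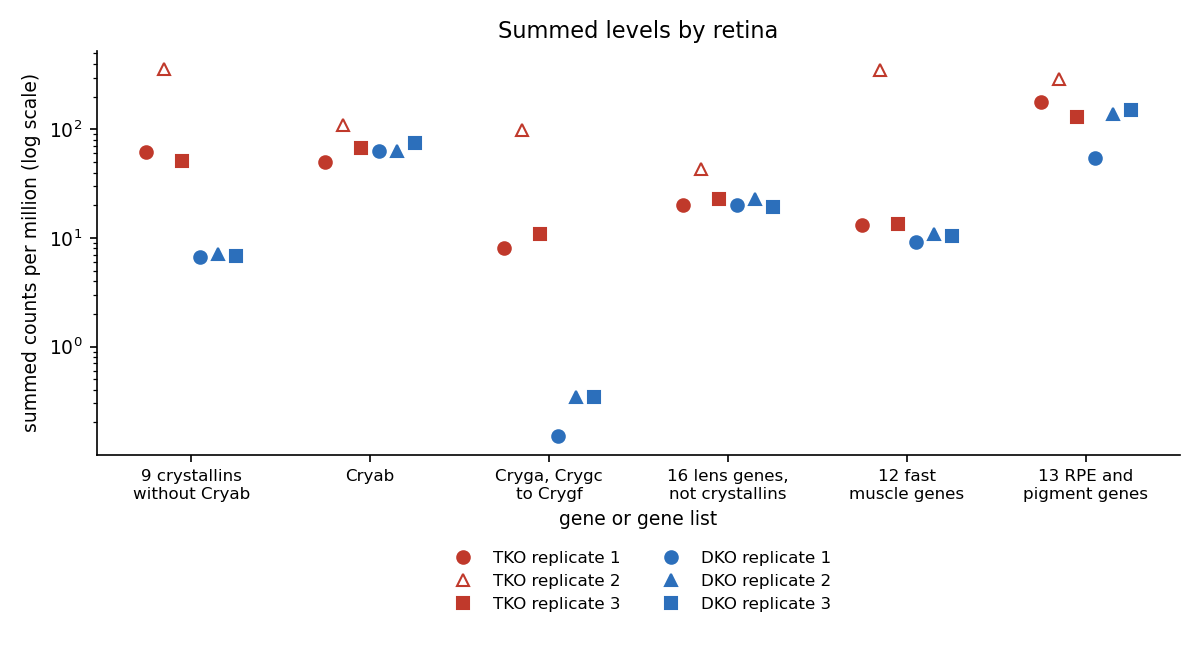
Summed CPM (TMM-scaled, log axis) in each P21 retina for the 9 crystallins without Cryab, Cryab alone, 5 other gamma crystallins, 16 other lens genes, 12 fast muscle genes and 13 RPE and pigment genes, with red for TKO, blue for DKO and an open triangle for TKO replicate 2. Replicate 2 is highest in all 6 sets. The other TKO retinae lie above the DKO retinae in both sets of crystallins without Cryab and, by less, in the muscle genes.

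Cornea and conjunctiva genes were low. Of 7, 3 could be tested and 0 were called by edgeR, with 1 at an unadjusted p under 0.05. Krt12, the cornea keratin, had 13, 21 and 41 counts in TKO against 88, 98 and 64 in DKO, opposite to the crystallins, with a log2 fold change of -1.37 (edgeR adjusted p = 0.0579) that DESeq2 called lower. Krt15 and Aldh3a1 had fewer than 10 normalized counts on average. The 7 genes summed to 2.27, 2.91 and 5.24 CPM in TKO and 7.81, 7.61 and 5.32 in DKO.

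The regulators of crystallin genes went in both directions. Of 16, 15 could be tested, and 1 was called higher and 1 lower, where 1.97% and 4.38% of all genes were. These counts are too small to be read as a result. The median log2 fold change was -0.12. Tdrd7, an RNA granule protein needed in the lens that is also made in retina, rose by 1.41 on the log2 scale (standard error 0.211, edgeR adjusted p = 0.00733), from 1381 ± 264.8 normalized counts in DKO to 3661 ± 1006 in TKO. Sox2, a progenitor and glial factor that acts with Pax6 on crystallin enhancers, fell by 1.15 (standard error 0.145, edgeR adjusted p = 0.00627), from 569 ± 57.5 to 257 ± 44.6 normalized counts. Both calls held without TKO replicate 2. Pax6, the eye field factor, had 5764 ± 859 normalized counts in TKO against 6869 ± 537 in DKO, and Celf1, an RNA-binding protein, had 2012 ± 41.6 and 2201 ± 315, and neither passed the test. Maf, the lens factor whose core motif was searched above, had 149 ± 50.5 and 201 ± 22.3 normalized counts and did not pass.

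Among the enzymes that bear a crystallin name, 1 of 4 measured was called lower, opposite to the crystallins, where 4.38% of all genes were. Crym, a thyroid hormone binding protein and ketimine reductase that is not a lens structural protein in the mouse, had 1282, 1724 and 1458 counts in TKO against 3992, 3914 and 5907 in DKO. It fell by 1.28 on the log2 scale (standard error 0.158, edgeR adjusted p = 0.00603) and stayed called without TKO replicate 2. The quinone oxidoreductase gene Cryz had 468 ± 49.8 and 431 ± 27.2 normalized counts, and its relative Cryzl1 had 706 ± 49.1 and 642 ± 24.0. A shared name thus did not go with a shared direction.

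The small heat shock proteins other than the alpha crystallins were not called either. Of 7 genes, 6 could be tested, 0 were called by edgeR or DESeq2 and 1 had an unadjusted p under 0.05. Hspb6, a chaperone of muscle and neural tissue, had 1398 ± 458 normalized counts in TKO against 658 ± 307 in DKO, a log2 fold change of 1.09 (edgeR adjusted p = 0.0599). Hspb8 had 193 ± 33.7 and 212 ± 15.7 normalized counts, and Hspb1 had 52.7 ± 10.2 and 49.9 ± 18.8. In all 3 genes the groups overlapped, as in Cryab. Hspb6 otherwise differed from Cryab. Its TKO replicates 1 and 2, at 1508 and 1791 normalized counts, lay above every DKO retina (449 to 1010), and TKO replicate 3 was at 896. Its log2 fold change was 0.87 without TKO replicate 2, and 2 of the 6 fits with 1 retina left out called it.

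Cells of the retina that are known to make some crystallins were read through their own markers. Of 8 Müller glia genes, Glul, the glutamine synthetase of Müller glia, was called higher, from 14069 ± 1445 normalized counts in DKO to 31230 ± 3862 in TKO (log2 fold change 1.15, edgeR adjusted p = 0.00548). Rlbp1 had a log2 fold change of 0.76, below the minimum, and Dkk3 of -0.06. Of 7 gliosis genes, Lcn2, a secreted protein of stressed retina, fell by 4.86 on the log2 scale (edgeR adjusted p = 0.00733). Over all genes tested, 1.97% were called higher and 4.38% lower. Gfap, the filament protein of reactive glia, had 2550 ± 1154 normalized counts in TKO against 7033 ± 4003 in DKO and did not pass (edgeR adjusted p = 0.0566). Neither list was highest in TKO replicate 2, for any of its genes.

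All 10 rod genes were called higher in TKO, where 1.97% of all genes tested were. Without TKO replicate 2, 6 of the rod genes were still called, where 0.979% of all genes were called higher. They summed to 57519, 49235 and 28576 CPM in TKO and to 9997, 9765 and 18425 in DKO. The order of the TKO retinae differed from that of the crystallins, since replicate 1 and not replicate 2 was highest. Gnat1 had a log2 fold change of 1.84 and Sag, the rod arrestin, of 1.63 (edgeR adjusted p of 0.0114 and 0.0132). Of 7 ganglion cell genes, 0 were called by edgeR or DESeq2 and 1 had an unadjusted p under 0.05. The part of rod, glial and ganglion cell number in the crystallin counts was not tested.

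The genes outside the list whose levels followed the summed crystallins most closely were found among 857 genes with a range of at least 2 on the scale of log2(CPM + 0.5). The 10 highest Pearson correlations over the 6 retinae were with Crygf (0.994), Mylpf (0.990), Actn3 (0.989), Cryga (0.984), Pvalb (0.974), Myl1 (0.974), Lim2 (0.969), Atp2a1 (0.966), Cryge (0.966) and Crygd (0.961). Of these, 4 are gamma crystallins, Lim2 is a lens fiber gene, and Mylpf, Actn3, Myl1 and Atp2a1 encode parts of the contractile and calcium apparatus of fast muscle. Pvalb encodes a calcium buffer of fast muscle that is also present in retinal neurons. Such a correlation is carried by TKO replicate 2, where Atp2a1 had 901 counts against 16 to 20 in the other 5 libraries, and Myl1 403 against 0 to 6. The values are a description of 6 libraries that share this feature.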

How the data were processed

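RNA-seq was analysed from 3 TKO and 3 DKO retinae at P21, grouped by the sample labels. The deposited values are raw counts per gene, made by the authors without normalization from TruSeq Stranded mRNA libraries sequenced as 100-base read pairs. The study's methods name STAR and HTSeq on GRCm38 with up to 3 alignments per read, whereas the submitters' processing notes name TopHat2 and featureCounts, so the counting tool is uncertain. The strand setting is not given in the sources used here, and overlapping genes and near-identical gamma crystallins are less certain.

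Genes with a sum under 10 were removed, leaving 16904. TMM scaling and the quasi-likelihood test of edgeR 4.0.16 (R 4.3.3) were used with Benjamini-Hochberg adjustment over all of them, where the study used DESeq2. Genes were called at an adjusted p of 0.05 or less, a log2 fold change of 1 or more in size, and a mean of 10 or more normalized counts. CPM values use TMM-scaled library sizes. DESeq2 1.42.0, other scalings and filters, robust dispersion, the replicate number as a block and each retina left out were alternatives. The fits were tested on simulated data. The sample descriptions give each retina a different number, but do not say that replicates of a genotype are separate animals. The p-values set the difference between the genotypes against the spread between these samples within a genotype.

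The crystallins and the gene lists were chosen with earlier results of these data known, and the muscle list and the sums without Cryab and the pooled ratios without TKO replicate 2 were added after seeing the counts. Named genes are the crystallins, the genes called and the 3 most abundant of each other list, the 10 genes closest to the summed crystallins, and neighbours in the annotation; Hells, Maf, and further lens and muscle genes were named after their values were seen. Crybg1 and Crybg2 were matched through the older symbols Aim1 and Aim1l, and Cryzl2 was not analysed here. Some genes that the naming rule covers are not reported here. Coordinates and exon lengths come from GENCODE M21 and promoters from RefSeq. A count of 0 allows up to 3 counts. Intervals (95%, exact) cover counting error only. Same-numbered replicates of the genotypes did not deviate together (correlations 0.0517, -0.0451 and -0.163), so the numbers were not taken as pairs.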

Additional observations from a re-analysis of the deposited data

How the results depend on the processing

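Over all genes, 1074 were called; this became 90 with the replicate number as a block and 2721 with no minimum fold change, and 471 to 1500 with 1 retina left out. The block called 4 of the crystallins (Cryba1, Cryba2, Crybb2 and Crygs) in place of 7, with 0.0887% of all genes called higher, but the replicate numbers do not pair the samples, so this is not read as a weaker effect. The number of crystallins called was 8 with DESeq2, which gave no adjusted p for Crygb, and 6 with robust dispersion. With 1 retina left out it was 1 to 9 (1 without DKO replicate 1 or DKO replicate 2, 5 without TKO replicate 2). Over all genes, 121 to 476 were then called higher. With at least 10 counts in every retina, 3 crystallins remained to be tested and 0 were called by edgeR, and their median log2 fold change was 1.67 in place of 5.41. That filter removes genes that are low in DKO retinae. The median was 4.04 to 5.82 with 1 retina left out, lowest without TKO replicate 2. The ratio of the summed crystallins, 3.16, was 23.0 without Cryab, an alternative chosen after seeing the data, and 1.57 to 3.98 with 1 retina left out, lowest without TKO replicate 2. For the other lens genes, the count of 0 called by edgeR became 1 with no minimum fold change (Lenep) and 0 to 1 with 1 retina left out (1 without TKO replicate 1). With total counts as the only scaling, 247 genes were called higher and 983 lower, in place of 333 and 741, and the median over all genes moved from -0.01 to -0.17 (log2); Cryab was at 0.03 and the other 9 crystallins at 1.52 to 6.96. Groups of 3 retinae limit every count of calls, and genes at 0 to 6 counts in DKO retinae have loosely bounded folds.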
